A study of Homo sapiens with 15 samples.

Results

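The loci of 7 transcription factors of epithelial-to-mesenchymal transition (EMT), SNAI1, SNAI2, SNAI3, TWIST1, TWIST2, ZEB1 and ZEB2, were examined among 20033 protein-coding genes of GENCODE release 44. A locus was the annotated gene plus 20 kb on each side. Accessible chromatin was read from ATAC-seq peak lists of RPTEC, an hTERT-immortalised human renal proximal tubule epithelial line kept under G418, in 15 libraries. There were 3 libraries each of WT cells, of SETD2 knockout clones KO1 and KO2, and of clones Rescue1 and Rescue2. Each knockout line is 1 clone with frameshifts on both alleles from a CRISPR/Cas9 guide in SETD2 exon 3, and each rescue line is 1 blasticidin-selected clone of knockout cells transduced with a lentivirus for full-length FLAG-tagged SETD2. The knockout clone from which each rescue clone was derived is not named in the labels, but the names of the deposited lists of both rescue clones carry the clone code of KO2. Overlapping peaks from the 15 lists were joined into merged regions, which placed 168 of 367949 merged regions at the 7 loci. A merged region with a peak of at least 2 libraries is called a consensus region, and 148 of 295008 lay at the 7 loci. A region without a called peak is below the calling threshold and is not shown to be closed.

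In EMT, epithelial cells give up junctions and polarity and become motile, and these factors are the repressors and activators at the head of that program. SNAI and ZEB proteins are zinc finger factors that bind E-box DNA in epithelial genes such as CDH1 (E-cadherin) and repress them, while TWIST proteins bind E-boxes as basic helix-loop-helix dimers. ZEB1 and ZEB2 and the miR-200 microRNAs repress each other, and SETD2, which places the trimethyl mark on histone H3 lysine 36 across transcribed gene bodies, is often lost in clear cell renal carcinoma. The comparisons ask how accessible sites at these loci differ between SETD2 knockout and WT cells and whether SETD2 re-expression is accompanied by a return.

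The merged region that holds the start of each gene had a peak in 15 of 15 libraries. A peak within 1 kb of each start was called in every library, so none of the 7 factors had a promoter without a called peak in WT, knockout or rescue cells. Of the 20033 protein-coding genes, 15626 had such a promoter peak in at least 2 libraries. The share with a promoter peak in every library is not given here, so the count is not a result about these factors. Sites away from the starts differed. By an all-or-none rule, a region is gained where the first group has a peak in every library and the second in none, and lost where the reverse holds. On this rule 4 of the 148 regions were gained and 7 lost in KO (6 libraries of KO1 and KO2) against WT. Over all 295008 regions 4.79% were gained and 2.48% lost, against 2.70% and 4.73% at these loci. Rescue (6 libraries of Rescue1 and Rescue2) against KO gave 2 gained and 1 lost, and the background was 0.91% and 1.24%. Rescue against WT gave 7 gained and 0 lost, where the background was 4.48% and 2.09%. Peaks in all 15 libraries were held by 54 regions, or 36.5%, where 35.6% was the background. The smallest p that Fisher's exact test can give for a single region in KO against WT is 0.0119, and no region of the genome passed after Benjamini-Hochberg adjustment (smallest adjusted p 0.164 in KO against WT, where 31882 regions had an unadjusted p under 0.05, and 0.101 in rescue against KO, where 15605 did). The comparisons of KO with WT and of rescue with KO share the KO libraries.

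**Figure D1:**
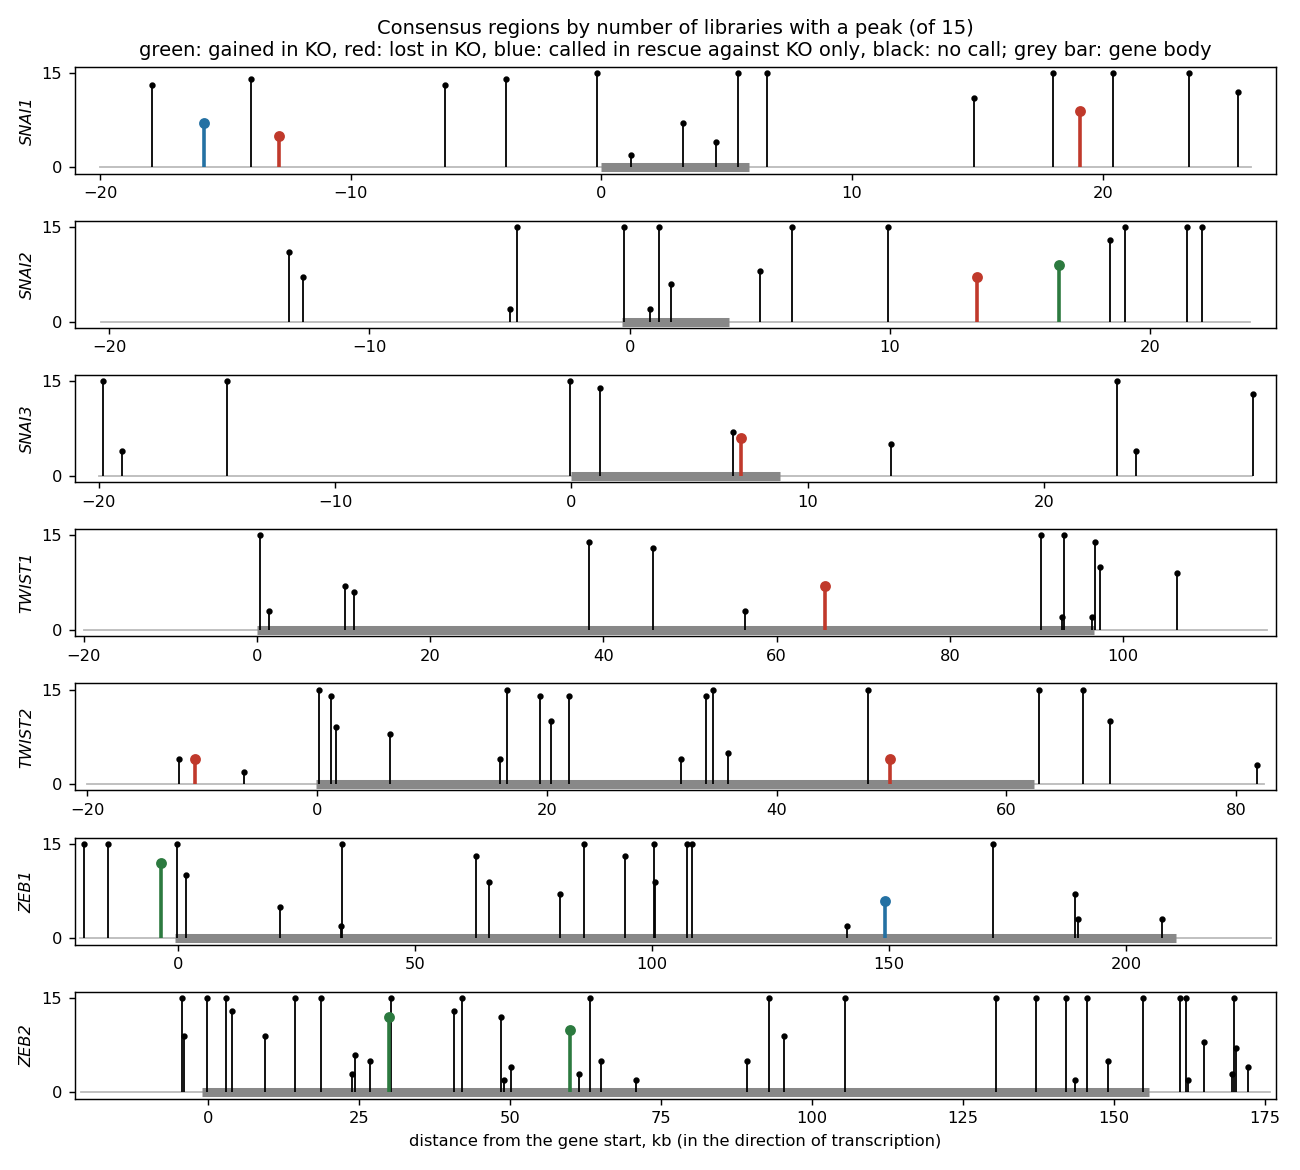
Each panel places the 148 consensus regions of a locus by the distance in kb from the gene start (x axis) and by the number of the 15 libraries with a peak (y axis), with the gene body as a grey bar. Every region holding a start sits at 15 libraries, and the 13 called regions, in colour, lie away from the starts with peaks in 4 to 12 libraries.

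The sequences of 6 of the 13 called regions are shown because they are sites whose peaks came, went or came back. They are from the plus strand of hg38, 5′ to 3′, and capitals mark matches on either strand to CAGGTG (the E-box preferred by SNAI and ZEB proteins), CATCTG (an E-box bound by TWIST), TGANTCA (AP-1), GGAATG (TEAD), TGTTTAC (FOX), TGTGGTT (RUNX) and ATGCAAAT (POU factors). The first 2 lie in the SNAI1 flanks at chr20:50001957-50002178 and chr20:49966973-49967233, the next at ZEB1 at chr10:31315554-31315780 and chr10:31468351-31468523, then ZEB2 at chr2:144490079-144490303 and TWIST1 at chr7:19051919-19052066.
SNAI1 downstream, lost and restored: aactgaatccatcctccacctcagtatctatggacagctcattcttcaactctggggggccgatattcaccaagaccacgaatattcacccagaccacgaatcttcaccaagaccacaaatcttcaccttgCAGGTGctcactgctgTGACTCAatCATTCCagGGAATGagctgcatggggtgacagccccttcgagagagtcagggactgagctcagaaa
SNAI1 upstream, in KO libraries: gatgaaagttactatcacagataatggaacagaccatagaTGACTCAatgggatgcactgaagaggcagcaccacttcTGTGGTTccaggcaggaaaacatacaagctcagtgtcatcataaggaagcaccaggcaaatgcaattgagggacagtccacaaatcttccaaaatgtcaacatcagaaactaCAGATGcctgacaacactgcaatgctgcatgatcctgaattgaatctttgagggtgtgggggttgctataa
ZEB1 upstream, gained and kept: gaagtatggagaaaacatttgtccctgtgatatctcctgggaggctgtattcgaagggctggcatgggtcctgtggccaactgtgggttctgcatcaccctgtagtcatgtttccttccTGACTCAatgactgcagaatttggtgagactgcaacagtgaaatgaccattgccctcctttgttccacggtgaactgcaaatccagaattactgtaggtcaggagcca
ZEB1 intron, in rescue libraries: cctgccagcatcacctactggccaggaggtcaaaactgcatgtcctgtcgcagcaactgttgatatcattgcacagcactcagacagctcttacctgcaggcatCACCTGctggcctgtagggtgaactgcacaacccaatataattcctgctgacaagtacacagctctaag
ZEB2 intron, gained and kept: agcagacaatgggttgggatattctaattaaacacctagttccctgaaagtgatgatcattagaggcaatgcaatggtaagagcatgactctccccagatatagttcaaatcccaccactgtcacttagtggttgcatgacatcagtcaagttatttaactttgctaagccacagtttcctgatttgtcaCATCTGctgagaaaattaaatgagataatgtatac
TWIST1, lost: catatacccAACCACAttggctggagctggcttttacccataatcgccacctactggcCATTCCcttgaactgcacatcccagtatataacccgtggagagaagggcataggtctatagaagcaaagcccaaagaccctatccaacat

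The restored SNAI1 region held a CAGGTG E-box, an AP-1 match and a pair of TEAD matches on opposite strands, while the other SNAI1 region shown held AP-1, RUNX and TWIST-type matches. The upstream ZEB1 region held an AP-1 match, the intronic ZEB1 region a CAGGTG E-box and the ZEB2 region a TWIST-type E-box. In the central 200 bp of all 295008 regions, CAGGTG was present in 16.2%, CATCTG in 16.5%, the AP-1 letters in 27.5%, the TEAD letters in 15.5%, the RUNX letters in 8.02%, the FOX letters in 3.51% and the POU letters in 1.39%. At the 7 loci CAGGTG was present in 34 of 148 windows (23.0%), CATCTG in 19 (12.8%), AP-1 in 32 (21.6%), TEAD in 27 (18.2%), RUNX in 9 (6.08%), FOX in 0 and POU in 2 (1.35%). These shares are descriptions, and a match is not shown to be bound. Median GC content was 48.3% over the 148 regions and 47.8% over all regions, and it was 69.0% over the 7 regions that hold a start.

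**Figure D2:**
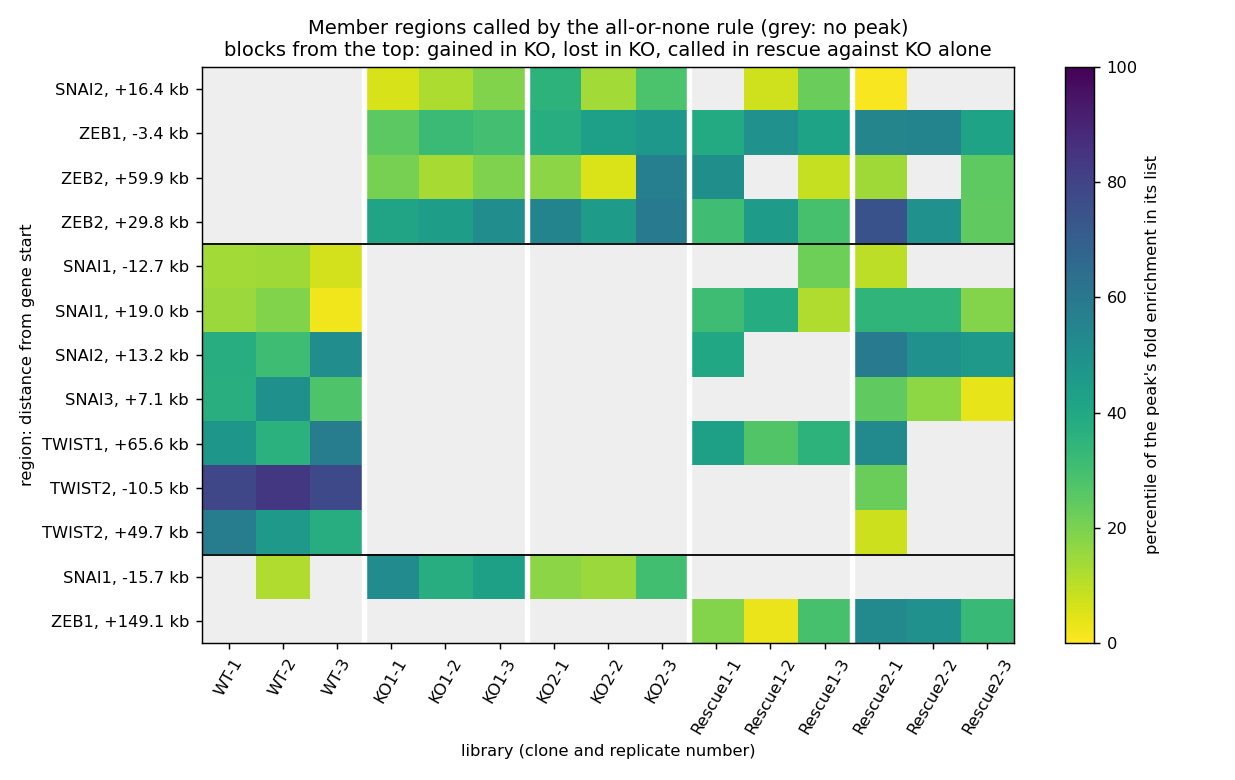
Rows are the 13 called regions by distance from the gene start and columns the 15 libraries, and colour gives the percentile of the peak's fold enrichment among all peaks of its own list (grey, no peak). The ZEB1 site 3.4 kb upstream is filled in every KO and rescue library, and the SNAI1 site 19.0 kb downstream is empty only in the 6 KO libraries.

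SNAI1 (Snail), the zinc finger repressor for which the family is named, had 18 consensus regions, 6 of them in all libraries. The downstream region at 19.0 kb, 222 bp wide, had a peak in 3 of 3 WT, 0 of 6 KO and 6 of 6 rescue libraries, the only member region lost in KO and gained in rescue. Genome-wide 0.314% of regions had that pattern, and 0.818% had the opposite one, a KO gain followed by a loss, which no member region had. Its peaks were low, with percentiles of fold enrichment from 2.09 (WT replicate 3) to 38.2 (Rescue1 replicate 2), and only 1 library of each rescue clone and none of the WT libraries kept the peak among the 150000 peaks of highest −log10 q. The upstream region at 15.7 kb, 261 bp wide, showed the opposite occupancy, with a peak in 1 of 3 WT, 6 of 6 KO and 0 of 6 rescue libraries. Its fold enrichment was 6.85, 5.27 and 6.17 in the KO1 libraries, 4.40, 4.53 and 5.05 in KO2 and 4.17 in WT replicate 2. Within their own lists these peaks had percentiles of 51.8, 37.7 and 43.1 in KO1, above 17.4, 15.1 and 30.2 in KO2, and with the 150000 best peaks only KO1 kept it, in 3 of 3 libraries. Another region, 12.7 kb upstream at chr20:49969987-49970271, was lost in KO and had a peak in 1 library of each rescue clone. At chr20:49997624-49998037, 14.6 kb downstream, a peak was absent in the 3 KO1 libraries, present in 2 of 3 KO2 libraries and present in every WT and rescue library.

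At SNAI2 (Slug), the paralog of SNAI1 that also represses CDH1, 17 consensus regions included 8 in all libraries. A region 16.4 kb downstream at chr8:48904829-48905011 was gained in KO and had a peak in 2 of 3 Rescue1 and 1 of 3 Rescue2 libraries. Another, 13.2 kb downstream at chr8:48907949-48908216, was lost in KO and had a peak in 1 of 3 Rescue1 and 3 of 3 Rescue2 libraries. An upstream region at 12.9 kb, chr8:48934352-48934723, lacked a peak in all WT libraries and had it in 5 of 6 KO and 6 of 6 rescue libraries. SNAI3 (Smuc), the least studied of the family, had 11 consensus regions and 4 in all libraries. Apart from the region holding the start, those in all libraries lay in the flanks, over the neighbouring genes MVD, RNF166 and CTU2. They were 1083, 601 and 1109 bp wide, and bases summed over the SNAI3 locus include peaks at these neighbours. Its region in an intron at chr16:88679203-88679449, where the antisense gene SNAI3-AS1 overlaps, was lost in KO. That region was absent in the 3 Rescue1 libraries and present in the 3 Rescue2 libraries, with percentiles from 3.73 to 24.3 there and of 37.2, 49.6 and 27.4 in WT.

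TWIST1, a basic helix-loop-helix factor of mesoderm and neural crest, had 15 consensus regions and 3 in all libraries. Its annotated body of 96.6 kb is mostly outside the short canonical transcript, and 11 regions lay in that outer stretch. The region 65.6 kb from the start, 148 bp wide, was lost in KO and had a peak in 3 of 3 Rescue1 and 1 of 3 Rescue2 libraries. A 753 bp region at chr7:19060893-19061645 had a peak in the 3 KO1 libraries and in no other library. At chr7:19011301-19011534 peaks were present in all KO2, Rescue1 and Rescue2 libraries and absent in WT and KO1. The paralog TWIST2 had 22 consensus regions and 6 in all libraries. Its upstream region at 10.5 kb had fold enrichments of 10.5, 12.2 and 11.0 in WT, percentiles of 78.6, 83.8 and 78.0 in those lists, no peak in KO or Rescue1, and 4.29 in Rescue2 replicate 1. Together with an intronic region at chr2:238897800-238898043 that had the same occupancy, it was lost in KO also among the 150000 best peaks. Other TWIST2 sites went the other way without a call. Intronic regions at chr2:238849034-238849569 and chr2:238867225-238867736 each had a peak in 2 of 3 WT and 6 of 6 KO libraries. Among the 150000 best peaks each was left in 0 of 3 WT, 3 of 3 KO1 and 3 of 3 KO2 libraries. An intronic region at chr2:238849619-238849820 had a peak in 0 of 3 WT and 5 of 6 KO libraries.

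Part of the TWIST2 upstream region is repeated DNA. Of its words of 31 bases, 41.5% occurred once in hg38 and the most frequent occurred 63787 times, and the lost SNAI2 region shared 172 of 211 aligned bases with it, had 28.6% of its words once and had a word with 9407 copies. Under 50% of the words occurred once in 5 of the 168 merged regions, while all words did in 145. Whether the repeats bear on these 2 calls was not tested. A weaker likeness, 59 of 87 aligned bases, joined the lost TWIST1 region and the ZEB1 intronic region among the 78 pairs of called regions compared.

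ZEB1, the zinc finger and homeodomain repressor, had 23 consensus regions and 9 in all libraries. The upstream region at 3.4 kb, within the divergent antisense gene ZEB1-AS1, had no peak in 3 WT libraries and a peak in 12 of 12 KO and rescue libraries. Its fold enrichment was 4.98, 5.03 and 5.24 in KO1, 5.87, 6.31 and 6.11 in KO2, 5.85, 6.78 and 6.15 in Rescue1 and 7.08, 6.89 and 6.17 in Rescue2. The occupancy was the same among the 150000 best peaks of each list. A region of 173 bp in an intron, 149 kb from the start, had a peak in 6 of 6 rescue libraries and in no WT or KO library, and among the 150000 best peaks it was left in 1 library. ZEB2 (SIP1), its paralog, had the most consensus regions, 42, with 18 in all libraries. In its introns a region 29.8 kb from the start was gained in KO and present in 6 of 6 rescue libraries, with percentiles from 24.4 to 74.7, and a region at chr2:144460066-144460260 was gained in KO and present in 2 of 3 libraries of each rescue clone. Genome-wide 2.14% of regions were gained in KO and present in every rescue library. Another ZEB2 region, at chr2:144471306-144471700, had peaks in every library except the 3 of Rescue1.

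A peak in every library of some line and in none of another, over all 5 lines, was found in 37 of 148 regions, or 25.0%, close to the genome-wide share of 26.9%. Between clones of a kind, 3 regions (2.03%) had a peak in all 3 KO2 and no KO1 libraries and 1 (0.676%) showed the reverse, where the genome-wide shares were 2.55% and 1.05%. In all 3 Rescue2 and no Rescue1 libraries were 3 regions (2.03%) and 0 showed the reverse, where the genome-wide shares were 2.47% and 0.732%. With the 150000 best peaks of each list, which sets the lists to 1 length, the same KO against WT call was obtained for 5 of the 11 called regions, namely the upstream ZEB1 region, the ZEB2 region at 29.8 kb, the TWIST1 region and the TWIST2 pair. For the 3 calls of rescue against KO it was obtained for 0. No genome-wide share of calls kept with these shortened lists is given here. The counts of kept calls are therefore not a result about these loci.

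Summed over a locus, the bases under peaks measure how much of it was called accessible. SNAI2 had 2868, 2775 and 2731 bases in the WT libraries, from 3119 through a median of 3277 to 3498 in KO and from 3410 through 3628 to 3860 in rescue libraries. All KO libraries lay above all WT libraries, and KO exceeded WT by 488 bases, or 17.5% (exact permutation p = 0.0238, the smallest possible; adjusted p = 0.0943 over 19581 loci). TWIST2 had 4268, 3323 and 3913 bases in WT, from 4881 through 5045 to 5766 in KO and from 4711 through 5650 to 6019 in rescue. The groups of WT and KO did not overlap, and the difference was 1376 bases, or 35.9% (exact permutation p = 0.0238, adjusted p = 0.0943). These were 2 of 7 loci with an unadjusted p under 0.05, and over all loci the share was 32.7%, of which 17% were higher and 15.7% lower in KO. No locus of the genome passed after adjustment in this comparison, whose smallest adjusted p was 0.0943, and 6405 had an unadjusted p under 0.05. Rescue exceeded WT by 847 bases at SNAI2 and by 1693 bases at TWIST2 (exact permutation p = 0.0238 for each, adjusted p = 0.119), so neither sum was back at the WT level in the rescue clones. In that comparison 27.4% of all loci had an unadjusted p under 0.05, 23.4% higher and 3.98% lower in rescue. The SNAI2 difference lay in the flanks, since within the gene body alone KO and WT differed by −63.8 bases (exact permutation p = 0.452) and rescue and KO by −4.50.

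**Figure D3:**
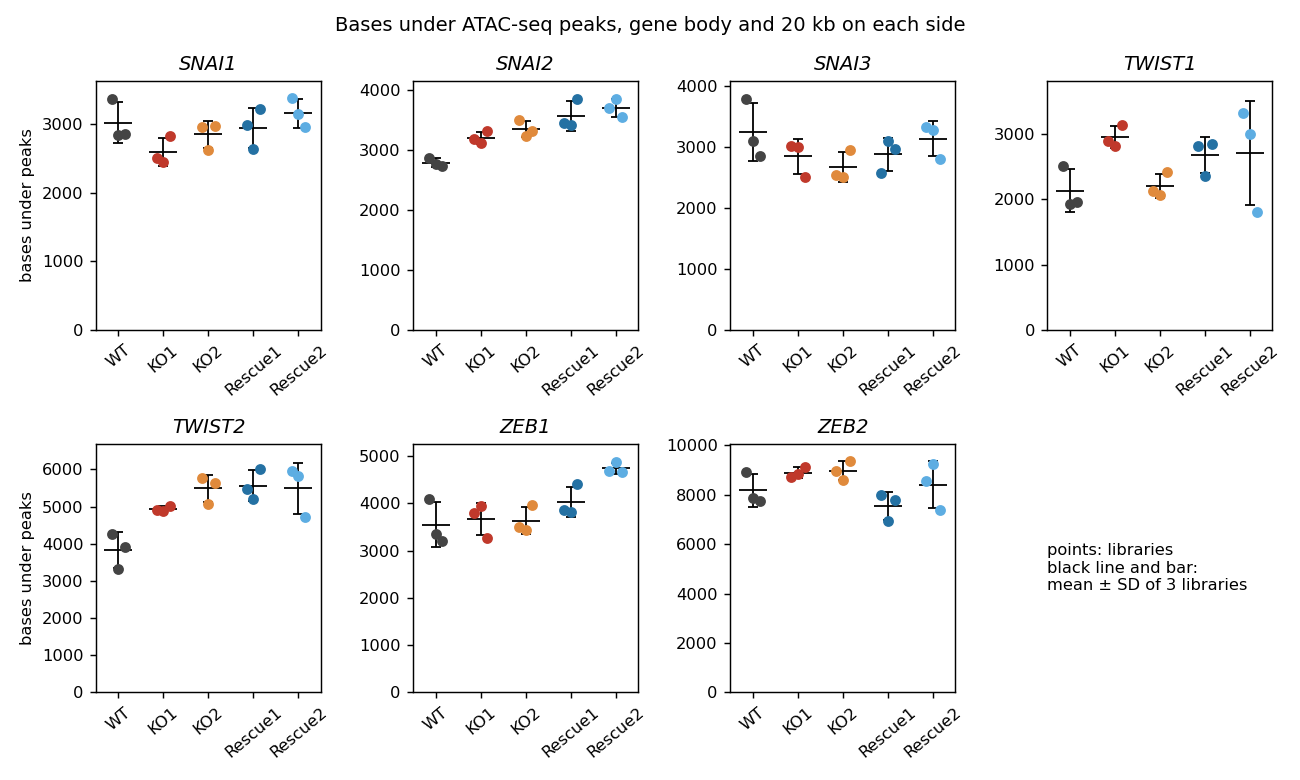
Points are the bases under peaks of a locus (y axis) in each library, by clone (x axis), with the mean ± SD of 3 libraries in black. At SNAI2 and TWIST2 every KO point lies above every WT point, and at TWIST1 the 3 KO1 points, from 2813 to 3139, lie above the 3 KO2 points, from 2068 to 2414.

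The lists of KO libraries covered more of the genome than those of WT, 55.9 ± 3.13 Mb (SD, n = 6) against 51.7 ± 3.91 Mb (SD, n = 3), and rescue lists covered 58.3 ± 5.36 Mb (SD, n = 6). Per Mb under peaks the TWIST2 difference held (19.2 bases per Mb, exact permutation p = 0.0238), that of SNAI2 was 4.66 (exact permutation p = 0.0952), and SNAI1 and SNAI3 were lower in KO by 9.75 and 13.2 bases per Mb (exact permutation p = 0.0238 for each). With 150000 peaks per list TWIST2 was higher in KO by 1169 bases (exact permutation p = 0.0238), SNAI2 by 239 (p = 0.0952), and SNAI3 was lower by 471 (p = 0.0476). TWIST2 was thus the only locus with the same call in all 3 units. In bases SNAI1 did not differ beyond the spread in KO against WT, with 3367, 2844 and 2866 in WT and from 2453 through 2724 to 2979 in KO (exact permutation p = 0.190). SNAI3 had 3788, 3105 and 2859 in WT and from 2516 through 2751 to 3024 in KO, groups that overlap (exact permutation p = 0.143). Within the SNAI3 gene body alone KO and WT differed by −370.5 bases (exact permutation p = 0.0238). With a −log10 q of at least 5 the SNAI3 difference was −631 (exact permutation p = 0.0476), and with a flank of 50 kb it was 102.5 (p = 0.881). TWIST1 had 2517, 1923 and 1965 in WT, 2902, 2813 and 3139 in KO1 and 2127, 2068 and 2414 in KO2. All KO1 libraries lay above WT while all KO2 libraries lay within its range, and the pooled difference was 442 bases (exact permutation p = 0.167). ZEB1 differed by 96.2 bases (exact permutation p = 0.738), a difference whose sign was negative in the other 2 units, and ZEB2 by 760 (exact permutation p = 0.0952). Within the ZEB2 gene body alone KO and WT differed by 703 bases (exact permutation p = 0.0476).

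In rescue against KO, 4 of 7 loci had an unadjusted p under 0.05, 3 higher and 1 lower in rescue. Over all loci the share was 41.5%, with 34.3% higher and 7.14% lower. SNAI2 was higher in rescue by 359 bases (exact permutation p = 0.00649, adjusted p = 0.0300), the only member past adjustment. ZEB1 had from 3273 through 3645 to 3952 bases in KO and from 3815 through 4527 to 4869 in rescue, a difference of 736 (exact permutation p = 0.0173, adjusted p = 0.0573). The groups overlapped, with 4 of 6 rescue libraries above every KO library. SNAI1 went from 2723 ± 228 bases in KO to 3057 ± 254 in rescue (SD, n = 6 each; exact permutation p = 0.0346, adjusted p = 0.0928), against 3026 ± 296 in WT (SD, n = 3). This difference lay in the flanks, since within the SNAI1 gene body alone rescue and KO differed by −147 bases (exact permutation p = 0.0541). ZEB2 went the other way, from 8935 ± 287 to 7981 ± 836 (SD, n = 6 each; exact permutation p = 0.0281, adjusted p = 0.0804). Its Rescue2 libraries had 8568, 9254 and 7382 bases and overlapped KO. The ZEB2 p passed 0.05 no longer without KO2 replicate 3, Rescue2 replicate 3 or any of the Rescue1 libraries (differences from −952 to −742), nor did that of SNAI1 without KO1 replicate 1 or 2, KO2 replicate 2, Rescue1 replicate 1 or 3, or Rescue2 replicate 1 or 2 (from 270 to 347). Against KO2 alone none of the 7 loci had a p under 0.05, with differences of 205 bases at SNAI1 (exact permutation p = 0.190), 285.5 at SNAI2 (p = 0.0714), 755 at ZEB1 (p = 0.0714) and −993 at ZEB2 (p = 0.0952), where the smallest possible p is 0.0238. Per Mb under peaks ZEB2 was lower by 23.2 (exact permutation p = 0.00216, the smallest possible) and ZEB1 higher by 9.94 (p = 0.00433), while SNAI2 missed the threshold (p = 0.0844). With 150000 peaks per list ZEB2 was lower by 801 bases (exact permutation p = 0.00866, adjusted p = 0.0372) and SNAI2 higher by 450 (p = 0.0325), and SNAI1 (p = 0.0823) and ZEB1 (p = 0.0519) were not past the threshold. At SNAI3, TWIST1 and TWIST2 the groups overlapped and the difference did not pass the test (exact permutation p = 0.154, 0.682 and 0.238), although 3, 1 and 3 of 6 rescue libraries lay above every KO library, and SNAI3 and TWIST1 changed sign with 150000 peaks per list. Within the SNAI3 gene body alone rescue and KO differed by 195 bases (exact permutation p = 0.0281). The median log2 ratio of the 7 loci was 0.13 in KO against WT and 0.13 in rescue against KO, beside −0.01 and 0.11 over all loci.

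Peaks at the gene starts were compared by rank, since fold enrichment is relative to the background of its own library. The strongest peak within 1 kb of the SNAI3 start ranked highest, with a median percentile of 82.6, and that of ZEB2 lowest, at 20.6. Between them came SNAI1 (66.7), SNAI2 (62.4), TWIST2 (58.8), TWIST1 (49.4) and ZEB1 (45.2), neighbours whose ranges over the 15 libraries overlapped, while the highest library of ZEB2 (36.9) lay below the lowest of ZEB1 (38.8). The ZEB2 rank is that of its canonical start, in a region 319 bp wide. A region 1355 bp wide lay 2.3 kb into ZEB2, outside the 1 kb window and within 1 kb of the start of ZEB2-AS1. That wider region had a peak in 15 of 15 libraries, a median percentile of 55.2 and a GC content of 68.9%. The SNAI1 start had percentiles of 81.1, 72.0 and 86.3 in WT, from 53.1 through 66.2 to 73.5 in KO and from 58.3 through 63.0 to 68.0 in rescue libraries. Only KO1 replicate 2 reached above the lowest WT library, and KO was lower by 15.2 points (exact permutation p = 0.0476, adjusted p = 0.235 over 15626 promoters). Rescue was lower than WT by 16.1 points with no overlap (exact permutation p = 0.0238, adjusted p = 0.139). The SNAI2 start went the other way, with 54.1, 54.6 and 55.6 in WT, from 55.8 through 61.4 to 65.8 in KO and from 62.4 through 68.5 to 75.8 in rescue. KO exceeded WT by 6.55 points (exact permutation p = 0.0238, adjusted p = 0.163), and rescue exceeded KO by 8.21 (exact permutation p = 0.0108, adjusted p = 0.0656). The counts were 2 of 7 in KO against WT, where 20.2% of all promoters had an unadjusted p under 0.05 (10.9% higher, 9.3% lower), 1 of 7 in rescue against KO, where 30.5% did (7.58% higher, 22.9% lower), and 2 of 7 in rescue against WT, where 24.2% did (7.52% higher, 16.7% lower). No promoter of the 7 passed after adjustment. Within 250 bp of the start the SNAI2 differences were 1.86 points in KO against WT (exact permutation p = 0.667) and 4.99 in rescue against KO (p = 0.459), both past the threshold no longer. Since longer lists of weak peaks move a percentile, ranks were also taken within the 150000 peaks of highest −log10 q of each list, an alternative chosen after seeing the data. There SNAI1 was lower in KO than in WT by 25.2 points (exact permutation p = 0.0238), SNAI2 differed by 3.91 (p = 0.476), and SNAI2 was higher in rescue than in KO by 11.3 (p = 0.0368). The SNAI1 call of KO against WT was lost without any KO library other than KO1 replicate 2. Ranked by −log10 q in place of fold enrichment, SNAI1 (−10.4 points, exact permutation p = 0.0714) and SNAI2 (2.92, p = 0.143) missed the threshold, and TWIST2 (29.2, p = 0.0238) and ZEB2 (12.1, p = 0.0476) were higher in KO.

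**Figure D4:**
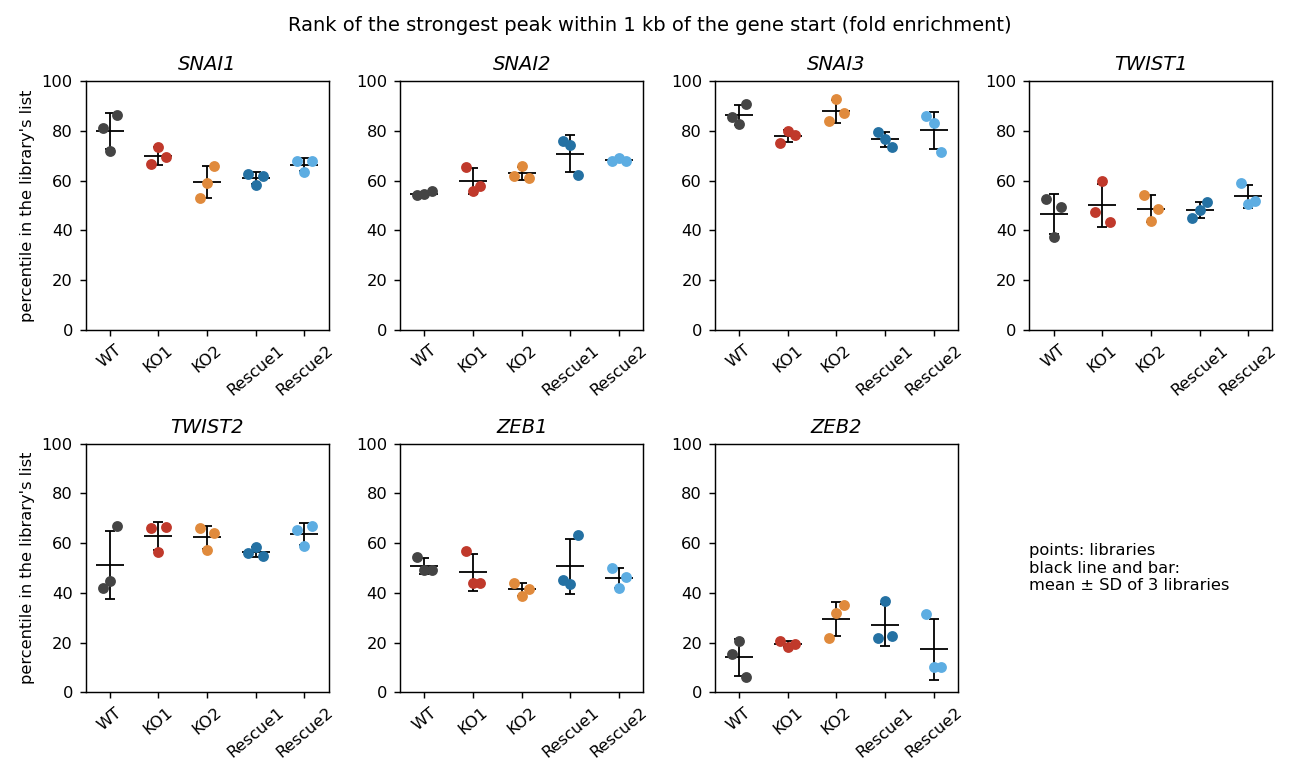
Points are the percentile of the strongest peak within 1 kb of the gene start among all peaks of that library (y axis, by fold enrichment), by clone (x axis), with the mean ± SD of 3 libraries in black. The WT points of SNAI1 lie from 72.0 to 86.3 and those of SNAI2 from 54.1 to 55.6.

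The promoter at the canonical ZEB1 start is shown, among 7 RefSeq promoters of that gene (RefSeq, GRCh38.p14, chr10:31318966-31319265, plus strand). It is shown because the region holding this start had a peak in every library beside the gained upstream site and because it holds 3 CAGGTG E-boxes, in capitals. RefSeq promoters of 300 bases matched 3 of the 7 genes, and 20.6% of all 35116 held such an E-box. Those of TWIST2 and ZEB2 held 0. Of the other ZEB1 promoters, that at chr10:31318167-31318466 held 1 and each of the rest held 0.
ZEB1 promoter: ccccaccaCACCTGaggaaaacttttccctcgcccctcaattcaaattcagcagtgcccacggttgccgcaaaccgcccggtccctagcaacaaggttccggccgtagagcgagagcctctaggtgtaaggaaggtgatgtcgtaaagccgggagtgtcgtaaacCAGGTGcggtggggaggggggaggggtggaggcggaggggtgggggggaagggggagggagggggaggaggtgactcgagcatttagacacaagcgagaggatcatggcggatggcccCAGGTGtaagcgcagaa

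Of 34 other protein-coding EMT genes listed by role, 6 had more and 6 fewer bases under peaks in KO than in WT at an unadjusted exact permutation p under 0.05, and 8 and 2 in rescue than in KO. Over all loci the share was 32.7% in KO against WT (17% higher, 15.7% lower) and 41.5% in rescue against KO (34.3% higher, 7.14% lower). The counts by role are small and were not tested against these shares. The 9 epithelial targets of the factors gave 1 higher and 3 lower in KO, and 3 higher and 0 lower in rescue against KO. CDH1, chosen after its values were seen, summed to 5643 ± 517 bases over WT libraries (SD, n = 3), 4556 ± 356 over KO and 4540 ± 550 over rescue libraries (SD, n = 6 each; KO against WT, exact permutation p = 0.0238, adjusted p = 0.0943), so that its sum stayed below WT in rescue. OCLN (occludin of tight junctions) had 4381 ± 361, 3824 ± 203 and 4460 ± 304 in the same order (exact permutation p = 0.0238 and 0.00649, adjusted p = 0.0943 and 0.0300). EPCAM, an epithelial adhesion gene, had 5011 ± 292, 5025 ± 186 and 5600 ± 271, and CRB3, a polarity gene, 1782 ± 151, 1599 ± 172 and 2048 ± 152 (rescue against KO, exact permutation p = 0.00216 and 0.00433, adjusted p = 0.0155 and 0.0235). The 8 mesenchymal targets gave 3 higher and 0 lower in KO, and 2 higher in rescue against KO, which were the fibronectin gene FN1 (4521 ± 895 in KO, 5932 ± 679 in rescue) and the matrix protease gene MMP2 (6054 ± 364 and 6777 ± 456; exact permutation p = 0.0173 and adjusted p = 0.0573 for each). Of 5 guardians of the epithelial state, GRHL2 and OVOL1 differed between KO and WT by −1033 and −383 bases (exact permutation p = 0.0238 for each) and the splicing regulator gene ESRP2 was higher in rescue than in KO (2829 ± 230 against 2496 ± 183, exact permutation p = 0.0195, adjusted p = 0.0622). Of 7 other EMT factors and E-box partners, KLF8, a repressor of CDH1, went from 1352 ± 253 in WT to 290 ± 163 in KO and back to 1241 ± 163 in rescue, and the homeobox gene PRRX1 from 1730 ± 225 to 2577 ± 168 and 1437 ± 159 (exact permutation p = 0.0238 and 0.00216, adjusted p = 0.0943 and 0.0155 in each). GSC (goosecoid) had 859 ± 40.3, 1094 ± 150 and 829 ± 91.5 (exact permutation p = 0.0476 and 0.00649, adjusted p = 0.146 and 0.0300). None of 5 cofactor genes, which include CTBP1 and HDAC1, had a p under 0.05. The window of MIR200A and MIR200B, opponents of ZEB1 and ZEB2, covered 3101 ± 419 bases (WT), 2329 ± 104 (KO) and 2797 ± 383 (rescue), and that of MIR200C 2664 ± 199, 2404 ± 181 and 2954 ± 228, with no test since only protein-coding loci were fitted.

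The lists held from 197527 to 266011 peaks. Promoter peaks were called in all 15 libraries for 8 of 11 renal epithelial markers, among them PAX8, CDH16 and EPCAM. KRT7 had a promoter peak in the 3 WT libraries alone and CUBN in none. Of 6 markers of other cell types, PTPRC and PECAM1 had none, and CDH5 and PDGFRB had a peak in all 15. At the SETD2 locus itself peaks covered 4395 ± 360 bases in the WT lists (SD, n = 3), 5017 ± 439 in those of KO and 5529 ± 710 in those of rescue (SD, n = 6 each), and peak lists do not show the edit.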

How the data were processed

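ATAC-seq peaks were called by the authors with MACS2 2.2.7.1 on each library separately. Reads were aligned with BWA to hg38, for which the study's methods and the labels' processing notes give different versions; the notes give 0.7.17 and DiffBind 2.14.0. The deposited lists give for each peak the interval, a MACS2 score, the fold enrichment as a ratio, the −log10 p and the −log10 q-value, relative to each library's own background. The authors' q threshold was 0.05. The values of the peaks therefore served to order or threshold the peaks of a list and were not tested between lists. Fold enrichments printed side by side are each relative to their own library. No read counts were used, so depth per library is unknown here and no counting interval is given.

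Autosomal (1 to 22), X and Y peaks were merged across libraries (overlap of at least 1 bp). Genes and canonical starts were from GENCODE release 44. Bases under peaks and promoter ranks were compared by exact permutation of library labels (statistic, difference of group means; two-sided p, the smaller tail doubled) over all protein-coding genes with Benjamini-Hochberg adjustment. The smallest p is 0.0238 for KO or rescue against WT and 0.00216 for rescue against KO. Replicates come from the same clones, so p-values describe these lines. Analyses used Python 3.11.15, numpy 2.4.6 and scipy 1.17.1, and calls, interval sums and permutation tests were tested on simulated data.

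Genes and lists were chosen with earlier results of these data known. Text names all 7 genes, start-holding regions, regions called in KO against WT or rescue against KO, and only part of the 37 clone-specific regions. It also names listed EMT genes with p under 0.05 in both comparisons and at most 2 per list with the smallest p in either comparison (ties included). The uncalled TWIST2 regions in introns and the ZEB2 region 2.3 kb from its start were named after their values were seen. Replicate numbers shared by groups did not pair libraries: over 30 same-number pairs, correlations of deviations ran from −0.721 to 0.526, and 4 of 15 libraries correlated best with their own number. No 2 lists shared more than 0.131% of their intervals. Alternatives were the 150000 best peaks per list, a −log10 q of at least 5, other flanks, promoter windows and ranks, sums per Mb under peaks, a larger overlap, a majority rule, single clones, a replicate block and leaving out each library, and, chosen after seeing the data, promoter ranks within the 150000 best peaks.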

Additional observations from a re-analysis of the deposited data

Results flagged for a closer look

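Among 28 groups of 6 libraries examined for a library apart from the rest, 2 held such a library. The groups share libraries, and the number that chance would give was not tested. Both were promoter ranks of ZEB1. In KO libraries the ZEB1 start reached a percentile of 57.0 in KO1 replicate 1, far above the median of 43.9. In rescue libraries it reached 63.5 in Rescue1 replicate 3, beside a median of 45.8. Without KO1 replicate 1 the difference of KO from WT at the ZEB1 start was −8.41 points and past the threshold of 0.05 (exact permutation p = 0.0357), which it was not with all libraries.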

How the results depend on the processing

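Calls rest on few libraries and on peaks near the calling threshold, and read depth is unknown. For KO against WT, single clones (3 against 3, smallest p 0.1), leaving out a WT library (6 against 2, 0.0714) and the replicate block (0.0741) cannot reach 0.05 and say nothing of stability. With KO1 alone or KO2 alone 0 loci passed, and without 1 library 0 to 2 loci and 0 to 2 promoters did. In rescue against KO 2 loci passed with the 150000 best peaks, 2 with a flank of 50 kb, 2 with KO1 alone, 0 with KO2 alone, 1 with Rescue1 alone and 2 to 4 without 1 library, the 2 without Rescue1 replicate 1 or Rescue1 replicate 3. Promoters passing in KO against WT were 1 within 250 bp of the start, 1 with a −log10 q of at least 5 and 1 within the 150000 best peaks (SNAI1 in each), and in rescue against KO 0 within 250 bp and 2 when ranked by −log10 q. Shares over all loci or promoters are not given for these settings or for the replicate block, so their counts are not a result about these loci.

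Shared replicate numbers did not pair the libraries. With the replicate block 0 loci and 0 promoters passed in KO against WT, and 3 loci and 1 promoter in rescue against KO.

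Regions lost in KO against WT were 4 with the 150000 best peaks, merged anew, and gained ones 7 when 50% of a region had to be under peaks and 10 with KO2 alone. By majority, 16 were gained and 15 lost, and 9 and 5 in rescue against KO, where the shares over all regions were 12.03%, 8.74%, 6.85% and 6.20%. There the 150000 best peaks gave 0 gained and 0 lost, a −log10 q of at least 5 gave 1 gained, KO1 alone 5 gained and 3 lost, Rescue1 alone 2 lost and Rescue2 alone 4 gained. Regions lost in rescue against KO were 1 to 2 without 1 library, the 2 without KO2 replicate 2. Only the majority rule has the shares over all regions beside it here, so the other counts are not a result about these loci.

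Some differences that had not passed, and those of SNAI1 and SNAI2 with no flank, turned sign. For KO against WT, bases became −262 (ZEB1) and −12.7 (ZEB2) with the 150000 best peaks, −106 (ZEB1) with a −log10 q of at least 5, 57 (SNAI1), −63.8 (SNAI2) and −57.7 (ZEB1) with no flank, 102.5 (SNAI3) with 50 kb, and −3.16 per Mb (ZEB1). For rescue against KO they became −54.8 (SNAI3) and −5.83 (TWIST1) with the 150000 best peaks, −147 (SNAI1), −4.50 (SNAI2) and −199 (TWIST1) with no flank, −0.224 per Mb (TWIST1) and −257 (TWIST1) with KO1 alone. Without 1 library, ZEB1 ran from −81.7 to 369 in KO against WT and TWIST1 from −9.37 to 294 in rescue against KO. Promoter percentiles in rescue against KO became 1.08 (SNAI3) ranked by −log10 q and 0.260 (ZEB2) with a −log10 q of at least 5. Without 1 library they ran from −3.24 to 0.855 (SNAI1), from −0.103 to 3.57 (TWIST1) and from −5.16 to 0.185 (ZEB2), and in KO against WT from −1.64 to 6.07 (TWIST1), which was −2.68 within the 150000 best peaks. The causes were not tested.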
